A study of Mus musculus with 2 samples.

Results

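Hes1, Nrarp, Dtx4, Lfng and Sox9, a set of genes known to respond to Notch signalling, were followed across Apc-mutant mouse intestinal organoids given DBZ or DMSO. The 5 genes were taken by name from the 13373 genes of the deposited table, with no threshold on a measured value. They and the gene lists below were chosen with earlier results of these data known, so their shares beside all genes only describe them. All 5 had transcripts in both libraries. Organoids are small epithelial cultures, and those used here came from C57Bl mice aged 3 to 4 months. DBZ inhibits gamma-secretase, and DMSO is the solvent given to the other culture. A protocol text common to both samples lists 300 nM 4-OH-tam (4-hydroxytamoxifen, a drug used to switch on inducible Cre) and 10 uM DBZ. The labels name neither the Apc allele nor a Cre driver. Each treatment has 1 library, so every value below compares 2 libraries with no replicate check. No test was made, and all intervals cover counting error only.

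Notch is a receptor that is cut inside the membrane by gamma-secretase once a Delta or Jagged ligand on a neighbouring cell binds it. The released intracellular domain enters the nucleus, joins the DNA-binding protein RBPJ and its coactivator Mastermind, and switches on target genes. In the intestinal crypt this keeps stem and progenitor cells from taking a secretory fate, largely because HES1 represses Atoh1, the factor that starts the secretory lineages. Gamma-secretase inhibitors given to the gut are known to turn progenitors into secretory cells.

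The labels state 3000 cells for each sample, and the table held 1241 DBZ cells and 968 DMSO cells, with medians of 10901 and 11183 UMIs per cell (unique molecular identifiers, each standing for 1 captured transcript). The libraries shared 3 cell barcodes. The epithelial gene Epcam was seen in 99.0% of DBZ and 99.8% of DMSO cells, while the 6 epithelial markers together had 36.1 and 56.3 UMIs per 10000. Of 6 fibroblast markers 0 had a row in the table, of 6 immune markers 1 (Cd68) and of 5 endothelial markers 1 (Pecam1). The 14 Paneth cell markers with a row summed to 312 per 10000 UMIs with DBZ against 74.5 with DMSO, and the 22 enteroendocrine markers to 19.3 against 4.59. In pooled levels, more cells of a type and more RNA per cell cannot be told apart. The median log2 change over the 12303 genes seen in at least 1% of cells of either library was 0.14, so a typical gene lay slightly higher in the DBZ library.

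All 5 genes are protein coding. In mm10 coordinates Hes1 lies on chromosome 16 from 30064384 to 30067796, Nrarp on chromosome 2 from 25180758 to 25183339, Lfng on chromosome 5 from 140607320 to 140615545 and Sox9 on chromosome 11 from 112782224 to 112787760, each on the plus strand. Dtx4 lies on chromosome 19 from 12466338 to 12501454 on the minus strand. Nrarp overlaps Gm38287 on the other strand, and how the counting treated strand is not given in the sources used here, so its UMIs could include some of that gene's.

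Promoters are shown for Nrarp and Lfng, the 2 of the 5 genes matched in the RefSeq promoter table, both of which regulate Notch signalling. Each run covers 250 bases before and 50 after the gene's start (RefSeq, GRCm38.p6), with Nrarp at chr2:25180508-25180807 and Lfng at chr5:140607091-140607390, both on the plus strand. Capitals mark TGGGAA, the core letters bound by RBPJ (TTCCCA on the other strand), and the E-box CACGTG, which reads the same on both strands.
Nrarp: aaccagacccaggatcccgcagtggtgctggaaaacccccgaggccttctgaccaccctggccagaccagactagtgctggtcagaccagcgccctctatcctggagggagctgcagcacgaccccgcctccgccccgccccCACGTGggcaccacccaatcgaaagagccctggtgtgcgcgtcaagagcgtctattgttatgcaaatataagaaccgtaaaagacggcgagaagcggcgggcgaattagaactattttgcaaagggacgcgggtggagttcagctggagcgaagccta
Lfng: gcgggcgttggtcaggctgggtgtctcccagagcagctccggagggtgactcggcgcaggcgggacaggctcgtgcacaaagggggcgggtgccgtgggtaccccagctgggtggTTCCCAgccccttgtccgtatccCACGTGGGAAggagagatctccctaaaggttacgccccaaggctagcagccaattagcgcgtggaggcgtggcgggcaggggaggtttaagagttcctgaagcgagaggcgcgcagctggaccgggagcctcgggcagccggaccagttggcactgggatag
The Lfng window holds TGGGAA once on each strand, and the plus-strand match overlaps its E-box. The Nrarp window holds the E-box and no TGGGAA. Of 32851 mouse promoter windows of this length 25.6% hold TGGGAA on either strand, 3.79% hold it at least 2 times and 7.15% hold the E-box. A match describes letters in the window only.

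Hes1 encodes the repressor through which Notch holds back secretory fate. Its pooled level was 3.13 UMIs per 10000 UMIs in the DMSO library (Poisson 95% interval 3.04 to 3.23, from 4096 UMIs) and 0.805 in the DBZ library (0.762 to 0.850, from 1302 UMIs). The intervals lay far apart, and the DBZ level was 3.89-fold lower (log2 change -1.96, exact conditional 95% interval -2.05 to -1.87). At least 2-fold lower levels were found for 2 of the 5 genes, Hes1 and Nrarp, against 3.2% of the 12303 genes, and the same 2 were at least 1.5-fold lower, against 8.84%. None of the 5 was at least 2-fold higher, against 6.97%. Hes1 was the 53rd lowest of these changes.

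In shares of cells the Hes1 difference was larger, as a ratio, at 5 or more UMIs than at 1 or more. A lower mean level alone shrinks the share above a higher count by a larger factor, so this contrast only describes the counts. Cells with 5 or more Hes1 UMIs made up 30.9% of the DMSO library (299 cells) and 5.24% of the DBZ library (65 cells), while cells with at least 1 made up 75.0% and 45.4%. In cells with a Hes1 UMI the mean level was 4.45 per 10000 with DMSO and 1.87 with DBZ. The highest DMSO cell carried 55 Hes1 UMIs and the highest DBZ cell 11. The 5 cells richest in Hes1 held 4.49% of the DMSO library's Hes1 UMIs and 3.76% of the DBZ library's, and the richest 10% of cells held 41.7% and 48.6%. Thinned to 5000 UMIs per cell, which left out 0 cells, the expected shares of cells with a Hes1 UMI were 57.7% with DMSO and 27.4% with DBZ.

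Nrarp encodes a small ankyrin repeat protein that binds the Notch complex and limits its output. It was rare, with 75 UMIs in 63 DMSO cells and 39 UMIs in 37 DBZ cells. The level was 0.0573 per 10000 with DMSO (0.0451 to 0.0719) and 0.0241 with DBZ (0.0172 to 0.0330). These intervals did not overlap, and the log2 change was -1.25 (-1.85 to -0.67). Nearly all positive cells had a single UMI, and only 9 DMSO and 2 DBZ cells had more.

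Dtx4 encodes a Deltex ubiquitin ligase, a family that acts on Notch receptors in the cell. In contrast to Hes1 it was higher in the DBZ library, with 0.283 per 10000 (0.258 to 0.310, 458 UMIs) against 0.160 (0.139 to 0.183, 209 UMIs). The log2 change was 0.83 (0.59 to 1.07), a 1.77-fold difference. Transcripts were found in 348 DBZ cells, which is 28.0% (exact interval 25.6 to 30.6%), and in 180 DMSO cells, which is 18.6% (16.2 to 21.2%). Dtx4 was the single member at least 1.5-fold higher, against 18.6% of all genes, so a difference of this size was common.

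Lfng encodes Lunatic fringe, a glycosyltransferase that adds sugars to Notch and changes which ligands it answers. Its level was 0.226 per 10000 with DBZ (0.204 to 0.251, 366 UMIs) and 0.174 with DMSO (0.152 to 0.198, 227 UMIs). The intervals were narrowly apart, and the log2 change was 0.38 (0.14 to 0.63). Relative to the median of 0.13 over genes seen in at least 10% of cells, the Lfng change was 0.26.

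Sox9 encodes a transcription factor of crypt stem cells and Paneth cells, which Wnt signalling also switches on. Its level was 2.59 per 10000 with DBZ (2.51 to 2.67, 4185 UMIs) and 2.87 with DMSO (2.78 to 2.97, 3759 UMIs). The log2 change was small, -0.15 (-0.21 to -0.09). A Sox9 UMI was found in 78.8% of DBZ and 82.1% of DMSO cells. A lower level of any size was seen for 3 of the 5 genes (Hes1, Nrarp and Sox9), against 38.3% of all genes.

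**Figure D1:**
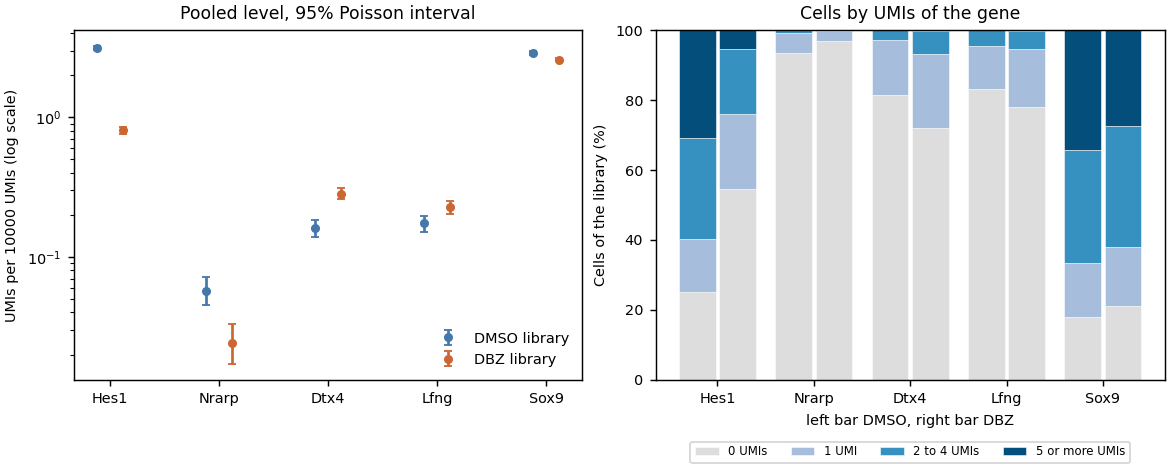
Left, pooled level of each gene in UMIs per 10000 UMIs on a log axis, with 95% Poisson intervals, for the DMSO (blue) and DBZ (orange) library. Right, percent of cells of each library with 0, 1, 2 to 4 and 5 or more UMIs of the gene; Hes1 cells with 5 or more UMIs took 30.9% of the DMSO and 5.24% of the DBZ library.

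The cells were grouped into 12 clusters from 2000 variable genes, after the 5 members and the other Notch pathway genes had been taken out, so that the members' levels did not shape the groups. Cluster 2 was enteroendocrine-like by its leading genes (Ghrl, Chgb and Chga), though 137 of its 251 cells also had alpha-defensin transcripts at 100 or more per 10000. Cluster 10 was Paneth-like (Defa3, Defa17 and Ang4). The other clusters stayed unnamed. Clusters 1 and 7 were over 90% DBZ cells, and clusters 4 and 5 over 90% DMSO cells. Such a cluster cannot be told apart from its library, since each treatment has 1.

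Hes1 was lower in DBZ cells in each of the 11 clusters where both libraries had Hes1 UMIs, and each of those 11 intervals lay below 0. The twelfth, cluster 4, had 3 DBZ cells and 0 Hes1 UMIs in them. In the 5 clusters with at least 30 cells of each library the log2 change ran from -2.67 in cluster 8, led by the stress and hypoxia genes Hmox1 and Ero1l, to -1.19 in cluster 2. The mitotic genes Ube2c and Cenpf led cluster 6, where 102 DBZ and 106 DMSO cells gave 0.750 and 2.64 Hes1 UMIs per 10000 (log2 change -1.81, -2.09 to -1.54).

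The secretory clusters had the lowest Hes1 levels in both libraries. In cluster 2 the level was 0.461 per 10000 among 41 DMSO cells (0.268 to 0.737, 17 UMIs) and 0.201 among 210 DBZ cells (0.145 to 0.273, 41 UMIs). In cluster 10 it was 0.924 among 9 DMSO cells (0.538 to 1.48) and 0.395 among 64 DBZ cells (0.287 to 0.531). HES1 is known to hold back enteroendocrine fate, so cluster 2 serves as the cell type that should have little of it: 26.8% of its DMSO cells and 13.8% of its DBZ cells had a Hes1 UMI, at median depths of 7817 and 8730 UMIs. Over all cells the shares were 75.0% and 45.4%, at 11183 and 10901 UMIs.

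Hes1 levels of DBZ cells lay below those of every DMSO group outside cluster 2 and the 9 DMSO cells of cluster 10. Among DMSO groups of at least 20 cells the order from low to high was cluster 2 (0.461), cluster 9 (2.08), cluster 3 (2.28), cluster 6 (2.64), cluster 8 (3.48), cluster 4 (3.89), cluster 5 (3.90), cluster 0 (4.29) and cluster 1 (6.82). Intervals of neighbours were apart at 3 of the 8 steps, from cluster 2 to 9, from 6 to 8 and from 0 to 1. DBZ groups ran only from 0.201 in cluster 2 to 1.13 in cluster 1, and 1 of 9 neighbouring steps, from cluster 2 to 10, was free of overlap. Cluster 1, led by Npy, Ptn and Spock2, thus had the highest Hes1 level in each library, with 25 DMSO cells behind its 6.82 (5.85 to 7.91).

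Among groups of at least 20 cells Nrarp was highest in 2 clusters led in part by genes of dividing cells. In the mitotic cluster 6 it had 0.125 per 10000 with DMSO (0.0821 to 0.181, 27 UMIs) and 0.0602 with DBZ (0.0301 to 0.108, 11 UMIs). Cluster 9, led by Reg3b and Ly6a with the replication genes Rrm2 and Hist1h2ap, had 0.103 (14 UMIs) and 0.0832 (6 UMIs). No Nrarp UMI was found in cluster 10, the Paneth-like one (64 DBZ and 9 DMSO cells), or in the unnamed cluster 11 (48 and 12 cells). Taken as 3 UMIs, this allows up to 0.0270 and 0.0575 per 10000 among their DBZ cells. Clusters 6 and 9 also held the deepest cells, with cluster medians of 18107.5 and 23775 UMIs. Nrarp was lower with DBZ in each of the 7 clusters with UMIs in both libraries, but each of those 7 intervals included 0. Of the other 5, cluster 1 had 4 UMIs with DBZ and 0 among 25 DMSO cells, clusters 4 and 5 had UMIs in DMSO cells only (3 and 7), and clusters 10 and 11 had none. No neighbouring step in the order of Nrarp levels was free of overlap.

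Cells of both libraries were also ranked by the summed level of 23 mitosis genes and split into quartiles. In the highest quartile Nrarp had 0.109 per 10000 with DMSO (59 UMIs) and 0.0498 with DBZ (22 UMIs), a log2 change of -1.14 (-1.91 to -0.41). Cells with 0 UMIs of the mitosis genes had 0.0165 and 0.00841, from 5 UMIs in each library. In the third quartile the sign turned, at 0.52 (-1.13 to 2.29) from 9 and 6 UMIs. Fewer DBZ cells lay in the highest quartile (257, against 295 DMSO cells). All 23 mitosis genes were lower in the DBZ library, beside 38.3% of all genes, with a median log2 change of -0.61. In cells low in replication and mitosis genes (495 DBZ and 217 DMSO cells) the Nrarp change was -0.88 with an interval that included 0 (-3.45 to 1.89). The part of the mitosis genes in the Nrarp difference over all cells was not tested beyond these values.

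Among DBZ groups of at least 20 cells Dtx4 was highest in cluster 7, led by Nts, Lcn2 and Ly6d, with 0.476 per 10000 among 150 DBZ cells (0.388 to 0.578). That cluster held 12.1% of DBZ cells but 22.3% of the DBZ library's Dtx4 UMIs. Its 6 DMSO cells had 0.533 (0.145 to 1.36, 4 UMIs). The lowest levels of these groups were those of the Paneth-like cluster 10, at 0.126 (0.0688 to 0.211), and of cluster 2, at 0.133 (0.0874 to 0.193). Within the 5 clusters well filled by both libraries the change was 0.84 in cluster 0, -0.03 in cluster 2, 0.45 in cluster 3, 0.72 in cluster 6 and 1.23 in cluster 8. The interval was above 0 in cluster 6 alone of these (0.02 to 1.43). In cluster 9, with 29 DBZ cells, the Dtx4 change was 1.46 (0.45 to 2.52). Over all 12 clusters Dtx4 was higher in DBZ cells in 8 and lower in 4, with 2 intervals above 0 and 0 below. With clusters made after centring each gene within its library, 4 of the 6 with at least 30 cells of each library had a Dtx4 interval above 0.

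Among groups of at least 20 cells Lfng had its highest DMSO level in cluster 0, which Cyp2c55 and Notum mark, at 0.462 per 10000 (0.296 to 0.687, 24 UMIs), where DBZ cells had 0.339 (0.277 to 0.409, 107 UMIs). Its highest DBZ level among these groups was in cluster 3, led by Amica1 and several Mcm genes of DNA replication. DBZ cells there had 0.406 (0.292 to 0.549) and DMSO cells 0.156 (0.110 to 0.214). Cluster 3 was the one cluster whose Lfng interval lay above 0, with a log2 change of 1.38 (0.71 to 2.06). Cluster 2 went the other way at -1.05 (-2.20 to 0.24). Across the 10 clusters with UMIs in both libraries 5 had a higher and 5 a lower Lfng level in DBZ cells, but 0 intervals lay below 0. Some of these rest on few UMIs, with 2 DBZ UMIs in each of clusters 4, 5 and 8 and 2 DMSO UMIs in cluster 1. Whether the Lfng change differs between states was not tested. Clusters 7 and 11, outside these 10, had 28 and 8 Lfng UMIs in DBZ cells and 0 in their 6 and 12 DMSO cells. With clusters made after centring each gene within its library, 0 of the 6 with at least 30 cells of each library had an Lfng interval above 0.

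Sox9 levels spanned a wider range across clusters than the 2.59 and 2.87 of the pooled libraries. In groups of at least 20 cells DMSO levels ran from 1.58 per 10000 in cluster 9 (1.37 to 1.80) to 5.48 in cluster 4 (5.17 to 5.79), and DBZ levels from 1.07 in cluster 7 (0.935 to 1.22) to 3.67 in the enteroendocrine-like cluster 2 (3.41 to 3.94). Within cluster 2 the 87 DBZ cells with defensins under 100 per 10000 had 4.46 (4.00 to 4.96), and the 123 with more had 3.19 (2.89 to 3.51). Cluster 4, where Sox9 was highest, was led by Pnliprp2, Cited4 and Egr4 and held 221 DMSO cells and 3 DBZ cells. In the order of levels 2 of 8 DMSO steps and 2 of 9 DBZ steps were free of overlap.

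The direction of the Sox9 difference changed with the cluster. Of the 12 clusters 6 had a lower and 6 a higher level in DBZ cells, with 3 intervals below 0 (clusters 0, 1 and 5) and 3 above 0 (clusters 3, 9 and 10). In cluster 1 DBZ cells had 2.92 and DMSO cells 5.03 (log2 change -0.78, -1.05 to -0.50). In the Paneth-like cluster 10 they had 2.18 and 1.30 (0.74, 0.13 to 1.41, with 24 DMSO UMIs from 9 cells).

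**Figure D2:**
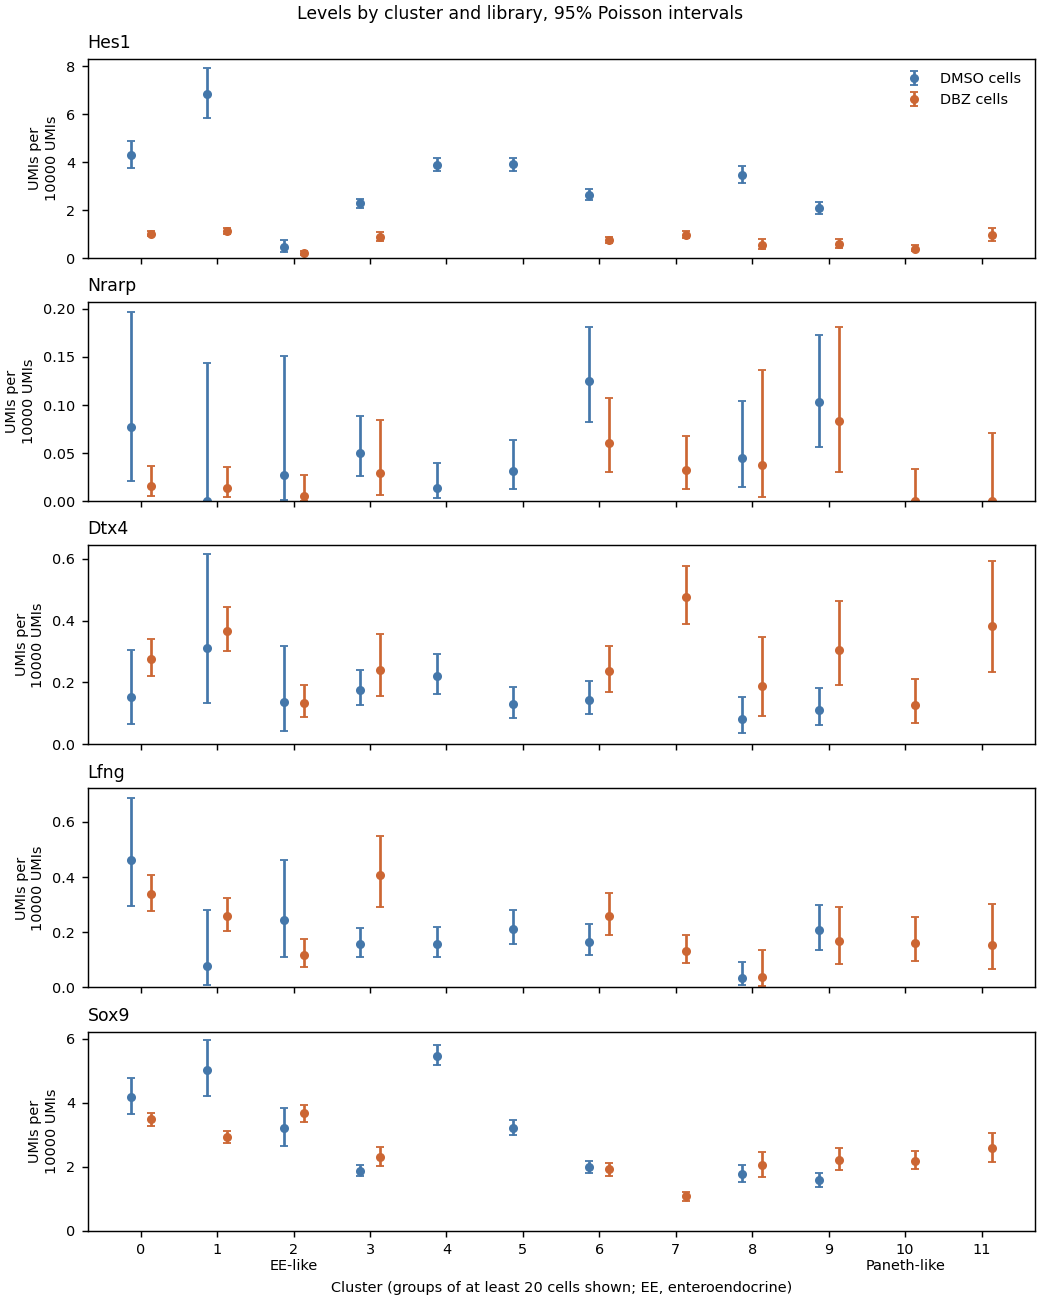
Level of each gene in UMIs per 10000 UMIs (y axes from 0, each its own scale) by cluster for groups of at least 20 cells, with 95% Poisson intervals, DMSO cells in blue and DBZ cells in orange. Hes1 is lower in DBZ cells wherever both are drawn, while the Sox9 points of the libraries change order between clusters.

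Immediate early genes, a class switched on rapidly by stimuli such as growth factors or tissue handling, were also lower in the DBZ library. All 16 members seen in at least 1% of cells were lower (median log2 change -1.25), beside 38.3% of all genes. The list summed to 36.0 per 10000 with DBZ and 67.7 with DMSO. Cells of both libraries were therefore ranked together by this sum and split into quartiles. Hes1 was lower in DBZ cells in each quartile, by a log2 change of -2.33 (-2.54 to -2.11) in the lowest, -2.16 in the second, -1.66 in the third and -1.22 (-1.49 to -0.96) in the highest. In DMSO cells the lowest and the highest quartile both had 2.94 Hes1 UMIs per 10000, the second 3.83 (3.59 to 4.09) and the third 3.05. In DBZ cells the level was 0.586 in the lowest and 1.26 in the highest quartile, where 93 DBZ cells stood against 459 DMSO cells. The gap between the libraries was thus smallest among cells rich in immediate early transcripts. Nrarp changes in these quartiles were -1.63, -2.11, -1.17 and -0.15, and the intervals of the third and the highest included 0 (3 DBZ UMIs in the highest).

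For Sox9 the same split changed the sign in all but the lowest quartile. Over all cells Sox9 was lower with DBZ, but the quartiles gave -0.15, 0.03, 0.18 and 0.16, and the interval of the third lay above 0 (0.05 to 0.30). From the lowest to the highest quartile Sox9 levels were 2.40, 2.38, 2.91 and 3.74 per 10000 with DBZ and 2.66, 2.32, 2.58 and 3.36 with DMSO, so the highest quartile stood above the others in both libraries. The DMSO library had more cells in the highest quartile, and the part of this in the pooled Sox9 difference was not tested beyond these values. Splits by DNA replication and by mitosis genes kept the lower Sox9 level outside their highest quartile. From the lowest to the highest quartile the changes were -0.25, -0.50, -0.29 and 0.03 by DNA replication genes. By mitosis genes they were -0.30, -0.22, -0.39 and -0.02. In both splits only the interval of the highest quartile included 0.

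Depth also touched Sox9. In the quartile of cells with the fewest UMIs DBZ cells had 3.27 Sox9 UMIs per 10000 and DMSO cells 4.57, a log2 change of -0.48 (-0.63 to -0.34), and in the deepest quartile 2.15 and 2.14 (0.01, -0.10 to 0.12). The second depth quartile had a Sox9 change of -0.46 (-0.59 to -0.32) and the third 0.12 (-0.01 to 0.26). Hes1 lay between -2.11 and -1.85 in the 4 depth quartiles. Dtx4 stayed higher in each of the 4 quartiles by immediate early level, with 0.79, 1.40, 0.97 and 0.43, and the interval of the highest quartile included 0. Lfng intervals included 0 in all 4 of them.

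**Figure D3:**
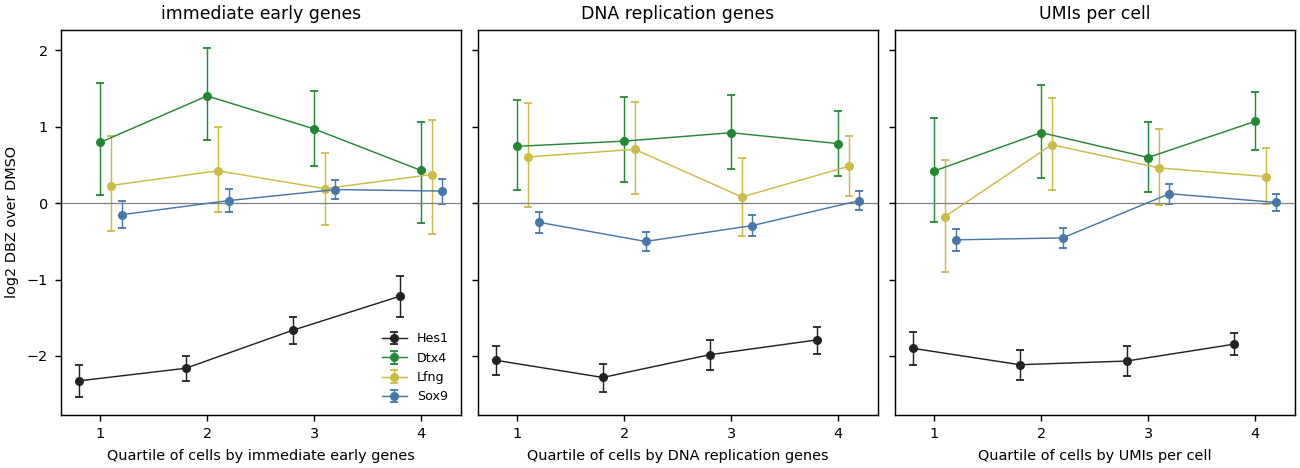
log2 change (DBZ over DMSO) of Hes1, Dtx4, Lfng and Sox9 in quartiles of cells from lowest (1) to highest by immediate early genes, DNA replication genes or UMIs per cell, with exact 95% counting intervals. Hes1 (black) is below 0 in all 12 points, from -2.33 to -1.22, and Dtx4 above 0 in all 12. Sox9 (blue) runs from -0.50 to 0.18. By immediate early genes it is below 0 in the lowest quartile alone. By DNA replication genes it is below 0 in all but the highest quartile, and by UMIs per cell in the lowest and the second.

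Cells carrying transcripts of secretory regulators had less Hes1. Here and in the next 2 paragraphs, values come from 120 comparisons of cells with and without transcripts of another gene, and cells of 1 library are no replicates. The 40 DBZ cells with an Atoh1 UMI had 0.437 Hes1 UMIs per 10000 (0.306 to 0.605) and the other DBZ cells 0.825 (0.780 to 0.872). Atoh1 was listed at 0 in DMSO cells. With Neurog3, which drives enteroendocrine fate, DBZ cells had 0.466 (66 cells) against 0.822 without, and DMSO cells 2.03 (14 cells, 1.36 to 2.92) against 3.14. Cells with defensins at 100 or more per 10000 had 0.486 against 0.884 with DBZ (235 and 1006 cells) and 1.10 against 3.21 with DMSO (33 and 935 cells). DMSO cells with Neurog3 thus still had more Hes1 than the DBZ library as a whole (0.805, 0.762 to 0.850). For DMSO cells with defensins the interval (0.836 to 1.43) overlapped that of the DBZ library. The 14 of them in cluster 2 had 0.609 (0.278 to 1.16).

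Lfng was higher in cells with Dll1 transcripts. In cells with a UMI of Dll1, a Notch ligand of secretory precursors, Lfng was 0.487 per 10000 (0.369 to 0.631, 80 cells) against 0.206 (0.184 to 0.230) in other DBZ cells, and 0.305 (0.206 to 0.436, 65 cells) against 0.163 (0.141 to 0.187) in other DMSO cells. The difference had the same direction in both libraries, with intervals apart in each. In DMSO cells Lfng was also higher with a Neurog3 UMI (14 cells, log2 ratio 1.73, 0.50 to 2.73). With a UMI of the ligand gene Dll4 the DMSO ratio was 1.31 (15 cells, 0.16 to 2.26). In DBZ cells these ratios were -0.52 (-1.49 to 0.30) for Neurog3 and 0.31 (-0.51 to 1.03) for Dll4. Dll1 cells were deeper, with medians of 12361.5 UMIs (DBZ) and 12614 (DMSO) against 10774 and 11112. Hes1 went the opposite way in Dll1 cells, 0.555 against 0.825 with DBZ and 2.56 against 3.18 with DMSO. Dtx4 was higher in cells with an Lgr5 UMI, 0.322 against 0.228 with DBZ and 0.186 against 0.115 with DMSO. Lgr5 marks crypt stem cells, and cells with its UMI were deeper (medians of 11651 and 11692 UMIs, against 10277 and 10317).

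Cells with and without a UMI of another member were compared 40 times, and 10 intervals excluded 0. Sox9 had 2.63 per 10000 in the 564 DBZ cells with a Hes1 UMI and 2.55 in the 677 without, and 2.88 and 2.84 in the 726 and 242 DMSO cells. Dtx4 and Lfng intervals for cells with against without Hes1 included 0 in both libraries. Nrarp differed in DMSO cells, at 0.0657 with and 0.0256 without Hes1 UMIs (log2 ratio 1.36, 0.24 to 2.73), and in DBZ cells it had 0.0272 and 0.0211 (0.37, -0.61 to 1.37). Split the other way, Hes1 in DMSO cells was higher with a Nrarp UMI (log2 ratio 0.22, 0.08 to 0.36) or a Sox9 UMI (0.19, 0.07 to 0.32) and lower with a Dtx4 UMI (-0.16, -0.27 to -0.05) or an Lfng UMI (-0.12, -0.24 to -0.01), while all 4 intervals in DBZ cells included 0. Sox9 was lower in cells with a Dtx4 UMI in both libraries (-0.16, -0.26 to -0.07, with DBZ, and -0.17, -0.29 to -0.06, with DMSO) and in DMSO cells with a Nrarp UMI (-0.37, -0.54 to -0.19). With a Sox9 UMI, DBZ cells had less Dtx4 (-0.50, -0.81 to -0.17) and more Lfng (0.44, 0.01 to 0.89). Cells with a UMI of any member were the deeper ones in each of these splits, and the part of depth was not tested. All 5 genes were seen together in 4 DBZ and 3 DMSO cells, and none of them in 81 and 37.

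Across the 19 cluster-by-library groups of at least 20 cells, log2(level + 0.05) of Hes1 had Pearson's r of 0.22 with Nrarp, -0.10 with Dtx4, -0.03 with Lfng and 0.26 with Sox9. These groups share 2 libraries and differ in depth, so r only describes them. Among 8407 genes the patterns most like Hes1 were those of Acp6 (r 0.86), Phlda1 (0.84) and Gmpr2 (0.83), and the most opposite were Stt3a (-0.88), the goblet cell peptide gene Tff3 (-0.87) and Ssr4 (-0.85). Nearest to Nrarp were Ak6, Aimp2 and the DNA damage kinase gene Chek2 (0.90, 0.90 and 0.89). Nearest to Dtx4 were Mgea5, Stk38l and Ptk7 (0.86, 0.85 and 0.84), to Lfng Zdhhc16, Qtrt1 and Zbtb12 (0.81, 0.81 and 0.78), and to Sox9 Slc27a1, Fam65b and Ssbp2 (0.88, 0.80 and 0.80).

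The wider set of 15 Notch targets had 9 genes seen in at least 1% of cells and above 0 in both libraries. Of these 5 were lower and 4 higher with DBZ, beside 38.3% lower and 61.7% higher over all genes. Their median log2 change was -0.15 against 0.14 over all genes, and it turned to 0.09 over the 6 members in at least 5% of cells. At least 2-fold lower were 3 of the 9, Hes1, Nrarp and the receptor gene Notch3 (-1.11, from 20 and 35 UMIs), beside 3.2% of all genes. Nrip2 had -0.72 (-1.69 to 0.22), Bcl2l1, a survival gene, 0.32 and Hes7 0.69 (-0.61 to 2.13). Olfm4, a stem cell gene, was listed at 0 in DBZ cells and had 7 DMSO UMIs. Among Hes1's relatives Hes6, which opposes HES1, stood at 3.45 (DBZ) and 4.51 (DMSO) UMIs per 10000, a change of -0.39, and Bhlhe40 at 0.268 and 0.470 (-0.81).

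The lists below stand beside 61.7% of all genes higher with DBZ, 38.3% lower and a median log2 change of 0.14. Of 20 regulators 17 had more transcripts with DBZ and 3 fewer (median 0.46), beside 61.7% higher over all genes. Neurl1a, a ligase for Notch ligands, had 0.207 against 0.0535 per 10000 (1.95, 1.58 to 2.35), the ligand ligase gene Mib1 had 0.76 and Adam10, which cuts Notch before gamma-secretase, 0.70. Of 19 genes of the nuclear complex 14 were higher (median 0.29), with Rbpj at 0.27 and the corepressor genes Tle1 at 1.07 and Tle2 at 1.51. Of 7 gamma-secretase genes 6 were higher (median 0.27), with Ncstn at 0.60. Of the 4 receptor genes 2 were lower and 2 higher (median -0.17). Notch1 was lower (-0.59, -0.84 to -0.33) and Notch2 higher (0.46, 0.16 to 0.75). Of the 5 ligand genes that could be compared 4 were higher (median 0.18). Of the 12 secretory fate genes that could be compared 11 were higher (median 0.93), among them Insm1 (2.36) and Bhlha15 (2.79).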

How the data were processed

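Droplet single-cell libraries of a DBZ and a DMSO culture were analysed. Per the submitters' processing notes the tools were Cell Ranger 2.1.1 and Seurat, with no version, on mm10. For filters and annotation, the sources used here state nothing. Deposited values are the authors' natural log of 1 + 10000 times a gene's share of a cell's UMIs, since exp(value) - 1 summed to 10000 in every cell. All 7553435 values above 0 were whole multiples of 1 step per cell within 0.01, which gave the UMIs. Columns begin with CTRL or GSI, read as DMSO and DBZ from the meaning of the names. In the values, 723 genes are at 0 in all DMSO cells and 282 in all DBZ cells, while 0 genes are above 0 in exactly 1 cell of a library, so a gene listed at 0 may have been removed there before deposit.

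Levels are a gene's summed UMIs per 10000 UMIs, with exact Poisson 95% intervals. Changes are log2 ratios, DBZ over DMSO, with exact conditional intervals, and shares have Clopper-Pearson intervals. Depth was 16168229 UMIs (DBZ) and 13083018 (DMSO). No count model was run and doublets were not called; leaving out deep cells is an alternative. Code was tested on simulated data. Clusters used 2000 variable genes, 30 components, 15 neighbours and Leiden resolution 1 (leidenalg 0.10.2, scanpy 1.11.5). A name needed 3 markers of 1 class among the 10 leading genes in at least 25% of the cluster's cells. Genes named beside the members are Notch pathway genes, the 3 most similar patterns, the most expressed or most changed list members and cluster leaders. Beyond this rule, the 3 patterns most opposite to Hes1, Epcam, Rbpj, Tle1 and the split of cluster 2 by defensins were picked with values in view. So were the quartile breakdowns by mitosis genes, DNA replication genes and depth. The naming rule and the defensin limit of 100 per 10000 come from earlier work on these data, and the members and lists were chosen with earlier results of these data known.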

Additional observations from a re-analysis of the deposited data

How the results depend on the processing

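Hes1 stayed between -2.11 and -1.79 in all 11 alternatives. It had -2.08 less the median change of all genes, -1.79 without the secretory and defensin-rich clusters, -1.83 as the mean of within-cluster changes, -2.11 with clusters made after centring each gene within its library, -2.06 in cells low in replication and mitosis genes and -1.84 as the mean over immediate early quartiles. Nrarp moved to -0.45 with each cell weighted equally and a pseudocount of 0.05, which shrinks low genes, and had -0.88 (-3.45 to 1.89, an interval that includes 0) in cells low in replication and mitosis genes. Lfng had 0.12 as the mean of within-cluster changes and 0.86 in cells low in replication and mitosis genes. Sox9 had -0.23 and -0.24 with equal weights (pseudocounts of 0.05 and 0.01), -0.24 thinned to 5000 UMIs, -0.28 less the median, -0.23 without the secretory clusters and -0.29 in cells low in replication and mitosis genes. Its sign turned in 3 alternatives, with 0.079 as the mean of within-cluster changes, 0.0054 with centred clusters and 0.054 over immediate early quartiles; the cause was not tested. Dtx4 stayed inside its counting interval throughout. With 7 or 19 clusters (resolutions of 0.5 and 2) the highest cluster level moved out of its interval for Hes1 with DBZ (1.39), Lfng with DMSO (0.263) and Sox9 with DBZ (4.97) and DMSO (3.73 and 6.66). The Notch target list had 3 lower and 3 higher among 6 members in at least 5% of cells, and its median turned from -0.15 to 0.09. Leaving out the barcodes found in both libraries, an alternative added after the data were seen, moved no change out of its interval. No paired analysis was possible because each treatment has 1 library. Nrarp, with 114 UMIs in all, is the gene whose cluster values depth limits most.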
